A study of Arabidopsis thaliana with 4 samples.

Results

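Catalases and ascorbate peroxidases (APX) are the haem enzymes that remove most hydrogen peroxide in plant cells. The 10 genes described here are the catalases CAT1, CAT2 and CAT3 and the ascorbate peroxidases APX1, APX2, APX3, APX5, APX6, SAPX and TAPX. They were taken by gene identifier from the 27554 identified genes of the deposited table, and all 10 had enough counts to be tested. Ribosome footprints, the mRNA stretches that translating ribosomes shield from nuclease, were counted in Arabidopsis thaliana seedlings harvested whole at 6 days of age. They belonged to line 5, which overexpresses the chloroplast ATPase ClpD in a WT background (2 libraries), or to WT (2 libraries). Per the series' design text the overexpression is constitutive and the ClpD precursor accumulated in these seedlings; the promoter is not given in the sources used here, and line 5 is 1 line, so ClpD cannot be told apart from other features of that line.

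Catalases split hydrogen peroxide without a reducing partner, work in peroxisomes and handle the high flux that photorespiration releases there. Ascorbate peroxidases spend ascorbate to reduce peroxide at lower concentrations, in the cytosol, peroxisomes, plastids and mitochondria, and the oxidised ascorbate is then regenerated by dedicated reductases. CAT2 is the main catalase of green leaves, CAT3 is known from vascular and senescing tissue, and CAT1 from pollen, seeds and abscisic acid responses. CAT2 and CAT3 messages are known to cycle over the day in opposite phase, CAT2 in the morning and CAT3 in the evening.

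Total counts ran from 27260818 to 42291527 per library. Levels of a gene in different libraries are given in CPM, counts scaled to a common library size with TMM (trimmed mean of M values) factors, and levels of different genes as the authors' FPKM, which divides by gene length. ClpD (AT5G51070) had 3112 and 3302 CPM in the line 5 libraries, against 167 and 175 CPM in WT, as the labels say. The labels do not state separate cultures for the libraries of one group, so p-values measure the spread between these libraries, which may be technical. Footprints follow mRNA amount and ribosome loading together, and in whole seedlings fewer cells of a type and less RNA per cell cannot be told apart. Of 4 root markers, the root hair genes COBL9 and EXPA7 and the endodermis gene CASP1 had from 0 to 8 counts in every library, and only SCR, which is also active in shoots, was measurable. SCR fell, with 15.9 and 13.6 CPM in line 5, against 25.9 and 29.8 CPM in WT (log2 fold change -0.92, edgeR, adjusted p = 0.0249). The root hair and endodermis genes thus gave little sign of root tissue in these libraries, although the seedlings are described as harvested whole. Whether the member levels include roots, and the part of tissue makeup in the member results, was not tested. The 4 green tissue markers summed to 31924 and 31112 CPM in line 5 and to 40860 and 41855 CPM in WT.

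Per length the members ran from 0.38 FPKM for APX2 in a WT library to 3429 FPKM for CAT2 in another, and the order at the top differed between line 5 and WT. In line 5 APX1 led with 2901 and 2522 FPKM, followed by CAT3 with 1187 and 1683 FPKM and CAT2 with 1602 and 1093 FPKM, the last pair overlapping. In WT CAT2 led with 2866 and 3429 FPKM, above APX1 with 2521 and 1826 FPKM and CAT3 with 760 and 539 FPKM, and these ranges did not overlap. APX3 came next in either group, with 413 and 394 FPKM in line 5 and 441 and 383 FPKM in WT. SAPX stood above TAPX in line 5 (137 and 120 against 92.8 and 93.8 FPKM), while their ranges overlapped in WT (101 and 90.2 against 101 and 99.6 FPKM). CAT1 and APX6 lay lower and changed places: CAT1 had 39.2 and 68.9 FPKM in line 5 and 19.2 and 14.2 FPKM in WT, against 22.4 and 22.5 FPKM in line 5 and 21.6 and 19.8 FPKM in WT for APX6. APX5 and APX2 were the lowest, none of their values exceeding 3.12 FPKM.

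**Figure D1:**
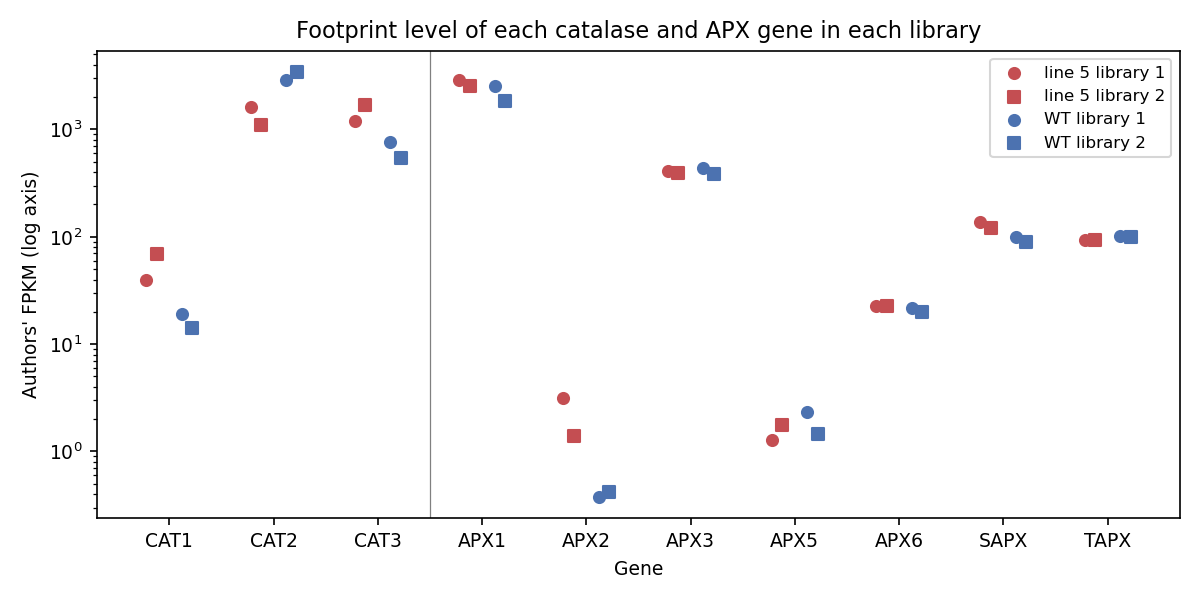
Authors' FPKM (log axis) of each catalase and ascorbate peroxidase gene, with 1 point per library, line 5 left of WT. CAT2 sits at 1602 and 1093 in line 5, below its 2866 and 3429 in WT, while CAT3 and CAT1 are placed the other way round and most ascorbate peroxidases lie nearly level.

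The catalases moved in opposite directions in line 5. By edgeR's quasi-likelihood test, with Benjamini-Hochberg adjustment over 18737 genes and a threshold of 0.05, CAT2 fell, CAT1 rose, and the increase of CAT3 just missed the threshold. Thus 1 of 10 members was called higher and 1 lower, against 6.72% higher and 8.72% lower over all genes tested; 2 of 10 is close to the 15.4% called in either direction. DESeq2 called 3 members higher and 1 lower, with 8.49% and 12.2% of all genes called in those directions. The authors' deposited table likewise lists 3 members higher and 1 lower at its FDR under 0.05, with 5.15% and 7.5% of all its genes. Those shares are over 27554 genes, scarce ones included, and not over the 18737 tested here. With DESeq2 and in the authors' table the added genes are CAT3 and APX2.

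CAT2 (AT4G35090), the photorespiratory catalase of leaf peroxisomes, had 2253 and 1504 CPM in the line 5 libraries, against 4547 and 5832 CPM in WT. Every line 5 value lay below every WT value, and the second line 5 library was the lowest of all. The level averaged 1878 ± 530 CPM in line 5 and 5189 ± 908 CPM in WT (SD, n = 2 each), a log2 fold change of -1.47 (SE 0.248, edgeR, adjusted p = 0.0280). Leaving out line 5 replicate 1 gave -1.79 and leaving out line 5 replicate 2 gave -1.20. Either fit keeps 1 line 5 library and takes its spread from the WT pair alone. Over the 13 alternatives CAT2 stayed lower in all, with adjusted p from 4.97e-07 to 0.189, and was called in 10. The green tissue markers were lower in line 5 too, at a median of -0.39 on the log2 scale and 0 of 4 called by edgeR (2 by DESeq2); their part in the CAT2 difference was not tested.

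CAT1 (AT1G20630), the abscisic acid-responsive catalase, had 55.1 and 94.9 CPM in line 5, against 30.5 and 24.2 CPM in WT. The libraries did not overlap, and the second line 5 library was the highest. The mean was 75.0 ± 28.1 CPM in line 5 and 27.3 ± 4.41 CPM in WT (SD, n = 2 each), a 2.74-fold increase (log2 fold change 1.45, SE 0.289, edgeR, adjusted p = 0.0367). Without line 5 replicate 1 the log2 fold change was 1.79, and without line 5 replicate 2 it was 1.01. It stayed above 0 in all 13 alternatives and was called in 10, with adjusted p from 3.28e-05 to 0.189. CAT1 is a seed-expressed gene. The 4 seed storage and oil body markers summed to 9.62 and 3.13 CPM in line 5, against 22.3 and 25.9 CPM in WT. Much of that sum was CRA1, with 6.73 and 1.35 CPM in line 5 and 17.8 and 18.1 CPM in WT. SESA1 overlapped between the groups, with 1.03 and 1.45 CPM in line 5 and 0.741 and 1.98 CPM in WT. Of the 4 markers 0 were called by edgeR and 1 by DESeq2, and their part in the CAT1 value was not tested.

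CAT3 (AT1G20620), the evening-phased catalase, had 1403 and 1934 CPM in line 5, against 1001 and 775 CPM in WT. The groups did not overlap, and as for CAT1 the second line 5 library was the highest. The mean was 1668 ± 376 CPM in line 5 and 888 ± 160 CPM in WT (SD, n = 2 each), a log2 fold change of 0.91 (SE 0.215, edgeR, adjusted p = 0.0505). The value sits at the threshold: it was called in 8 of 13 alternatives, with adjusted p from 0.00149 to 0.260 and a log2 fold change of 0.66 to 1.15, among them the fit without WT replicate 1 (edgeR, adjusted p = 0.0194). Dawn-phased clock genes moved with CAT2 and opposite to CAT3: the clock repressor CCA1 (AT2G46830) had 41.8 and 18.5 CPM in line 5 and 147 and 172 CPM in WT, and its partner LHY (AT1G01060) had 12.9 and 2.57 CPM in line 5 and 75.6 and 127 CPM in WT, each called lower. The second line 5 library was the lowest for both, as it was for CAT2. The time of day of harvest is not given in the sources used here, and the part of clock phase in the catalase values was not tested.

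CAT3 and CAT1 are direct neighbours on chromosome 1, with 0 protein-coding genes between them in the RefSeq table. The next gene on either side was not called: CYCB2;3, a B-type cyclin next to CAT3, had 5.26 and 6.56 CPM in line 5 and 9.06 and 4.13 CPM in WT, and AT1G20640, next to CAT1, had 11.5 and 11.9 CPM in line 5 and 14.3 and 13.8 CPM in WT. CAT2 lies on chromosome 4, with 9 protein-coding genes between it and APX3, which was not called. The catalase genes are similar in sequence, and how the authors divided reads that match more than 1 of them is not given in the sources used here.

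**Figure D2:**
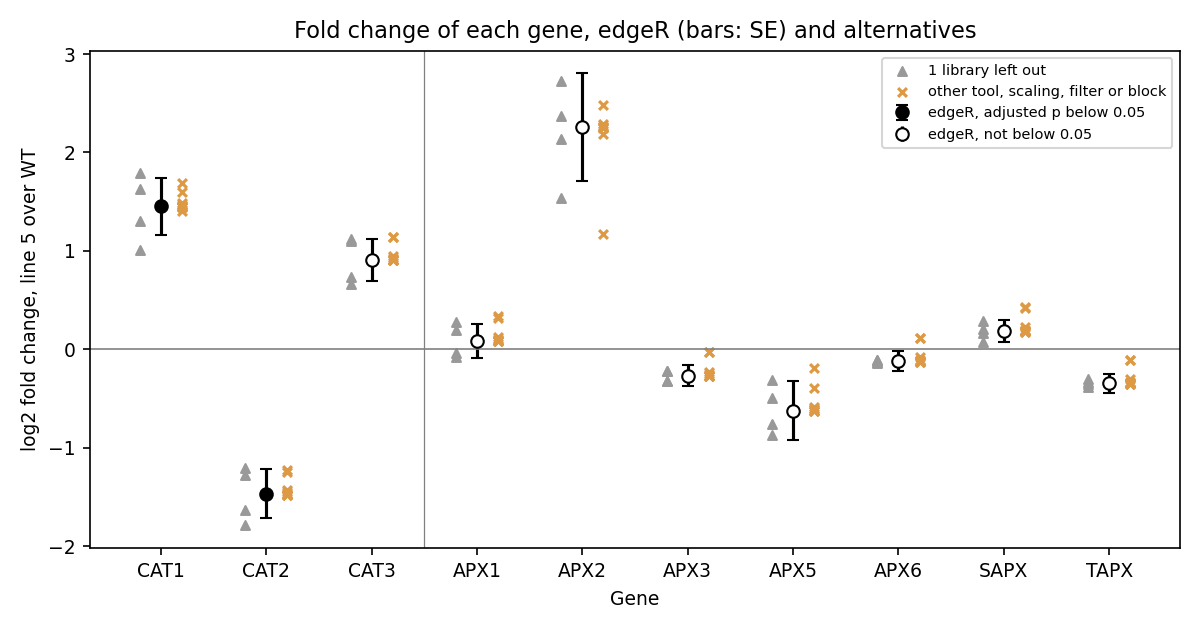
log2 fold change of line 5 over WT for each gene. Circles with bars give edgeR's value and its SE (filled where the adjusted p was below 0.05), triangles the values with 1 library left out, and crosses the other alternatives; CAT1 at 1.45 and CAT2 at -1.47 are filled, and every alternative keeps their side of 0.

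CAT2 held a smaller and CAT3 a larger part of the catalase pool in each line 5 library than in either WT library. CAT2 made up 56.7% and 38.4% of the summed catalase FPKM in the line 5 libraries, against 78.6% and 86.1% in WT. CAT3 made up 42.0% and 59.2% in line 5, against 20.8% and 13.5% in WT, and CAT1 1.38% and 2.42% in line 5, against 0.527% and 0.358% in WT. No catalase share overlapped between the groups, and CAT3 exceeded CAT2 in the second line 5 library alone. Shares of the ascorbate peroxidases within their own family did not overlap either, apart from APX6, so non-overlap was not particular to the catalases. The CAT2 share differed by -34.8 percentage points and the CAT3 share by 33.4 points (two-sided exact permutation test, p = 0.333 for each, the smallest that 2 against 2 libraries allow). By counts without length scaling the CAT2 share was 60.7% (95% exact binomial interval 60.5 to 61.0) and 42.6% (42.3 to 42.8) in line 5, and 81.5% (81.3 to 81.7) and 88.0% (87.8 to 88.1) in WT; these intervals cover counting error only. Within a library CAT2 stood at 1.35 and 0.649 times CAT3 in line 5 and at 3.77 and 6.36 times CAT3 in WT, ratios that no scaling between libraries can alter. The 3 catalases together had 3711 and 3532 CPM in line 5, against 5578 and 6630 CPM in WT, a ratio of means of 0.593 (two-sided exact permutation test, p = 0.333).

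**Figure D3:**
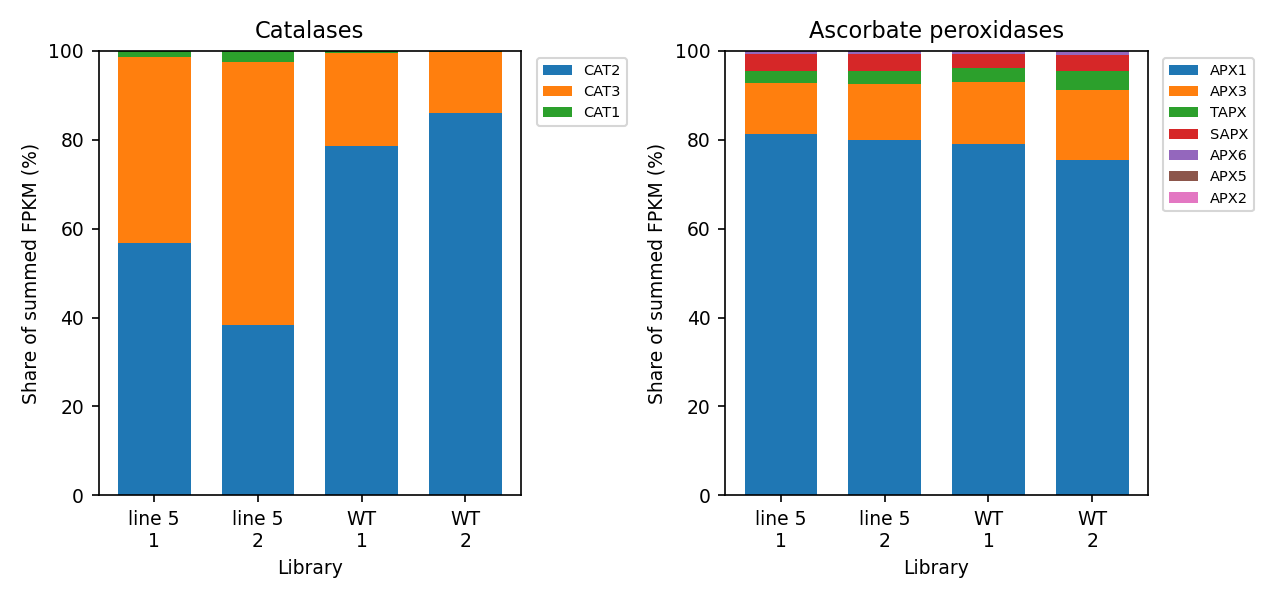
Share of the summed FPKM of the 3 catalases (left) and of the 7 ascorbate peroxidases (right) held by each gene, in %, with 1 bar per library and line 5 left of WT. CAT2 takes 56.7% and 38.4% in line 5 and 78.6% and 86.1% in WT, while APX1 takes from 75.4% to 81.2% of the ascorbate peroxidases in every library.

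In the edgeR fit given above no ascorbate peroxidase was called, while DESeq2 and the authors' deposited table called APX2 higher. The summed level of the 7 overlapped between the groups, at 2743 and 2381 CPM in line 5 and 2775 and 2285 CPM in WT (two-sided exact permutation test, p = 1). Their median log2 fold change was -0.12, against 0.0023 over all genes tested, and 3 of 7 were above 0. Counting all 10 members, 9 had libraries that did not overlap between the groups, but so did 68.1% of all genes tested. Normalization matters for values this close to 0: with plain library totals in place of TMM the median of all genes moved to 0.24 and the calls over all genes to 3355 higher and 1226 lower (1260 and 1633 with TMM), and APX6 changed from -0.12 to 0.12 on the log2 scale, below that median either way.

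In the cytosol, APX1 (AT1G07890), the most abundant ascorbate peroxidase, had 2119 and 1803 CPM in line 5, against 2078 and 1613 CPM in WT. The groups overlapped, and the log2 fold change was 0.088 (SE 0.173, edgeR, adjusted p = 0.742). It changed sign with either WT replicate 2 (-0.082) or line 5 replicate 1 (-0.033) left out. APX6 (AT4G32320), known for protecting drying and germinating seeds, had 21.3 and 21.0 CPM in line 5 and 23.2 and 22.8 CPM in WT (log2 fold change -0.12, SE 0.102, edgeR, adjusted p = 0.438).

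APX2 (AT3G09640), a cytosolic isoform known for induction by heat and excess light through heat shock factors, was scarce but stood apart by size. It had 104 and 43 counts in line 5, against 9 and 9 counts in WT, or 2.29 and 1.00 CPM in line 5 and 0.317 and 0.371 CPM in WT. The groups did not overlap, and here the first line 5 library was the highest, unlike for CAT1 and CAT3. The log2 fold change of 2.26 (SE 0.549), the largest of the 10, missed the threshold (edgeR, adjusted p = 0.0536). It was called in 5 of 12 alternatives, with adjusted p from 0.00883 to 0.182, and its log2 fold change was 1.54 without line 5 replicate 1 and 2.72 without line 5 replicate 2. HSFA2 (AT2G26150), a heat shock factor, had 12.6 and 10.3 CPM in line 5 and 1.83 and 0.784 CPM in WT, and was called higher; its part in the APX2 value was not tested. Even so APX2 made up only 0.0874% and 0.0444% of the ascorbate peroxidase FPKM in line 5, against 0.0119% and 0.0173% in WT. Because APX1 has 58916 and 39086 counts in WT, against 9 and 9 for APX2, a small share of misplaced APX1 reads would weigh on APX2; the division of reads between them was not tested.

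Among the peroxisomal isoforms, APX3 (AT4G35000), which sits in the peroxisome membrane, had 344 and 321 CPM in line 5, against 415 and 387 CPM in WT. The groups did not overlap, but the log2 fold change of -0.27 (SE 0.105) was not called (edgeR, adjusted p = 0.141). APX5 (AT4G35970), its close relative, had 47 and 53 counts in line 5 and 59 and 34 counts in WT (log2 fold change -0.62, SE 0.300, edgeR, adjusted p = 0.203). It had -0.31 without WT replicate 1 and -0.87 without WT replicate 2. The members called in this edgeR fit, CAT1 and CAT2, are peroxisomal, as is every catalase here. No ascorbate peroxidase of any compartment was called in that fit. The cytosolic APX2 narrowly missed its threshold (edgeR, adjusted p = 0.0536) and was called higher by DESeq2. The difference between the families was not tested.

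In plastids, the pair of chloroplast enzymes leaned apart. SAPX (AT4G08390), the stromal enzyme also sent to mitochondria, had 142 and 123 CPM in line 5, against 118 and 114 CPM in WT (log2 fold change 0.19, SE 0.115, edgeR, adjusted p = 0.298). It had 0.074 without line 5 replicate 1 and 0.29 without line 5 replicate 2. TAPX (AT1G77490), bound to thylakoids, had 112 and 111 CPM in line 5, against 138 and 146 CPM in WT (log2 fold change -0.35, SE 0.0946, edgeR, adjusted p = 0.0675). Neither was called, although neither overlapped between the groups. Within a library SAPX stood at 1.48 and 1.28 times TAPX in line 5 and at 0.995 and 0.905 times TAPX in WT by FPKM (two-sided exact permutation test on the log2 ratio, p = 0.333, the smallest possible). The authors' deposited table gives log2 fold changes of 0.43 for SAPX and -0.11 for TAPX on its FPKM scale.

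Several genes that make and regenerate ascorbate, the reductant of these peroxidases, were lower in line 5. Of 7 genes of ascorbate synthesis, 3 fell and 0 rose, against 8.72% lower and 6.72% higher over all genes, and the list's median log2 fold change was -0.50, against 0.0023 over all genes. VTC2 (AT4G26850), the GDP-L-galactose phosphorylase at the committed step, had 7.0 and 4.6 CPM in line 5, against 28.2 and 59.1 CPM in WT (log2 fold change -2.91, SE 0.424, edgeR, adjusted p = 0.0230). Its paralog VTC5 (AT5G55120) fell by 1.31 and the epimerase gene GME (AT5G28840) by 0.66 on the log2 scale, while the L-galactose dehydrogenase gene GalDH had 0.66 and was not called. GalDH was called higher with DESeq2 (0.66), and GalDH and GLDH, the gene of the last step, with library totals (0.90 and 0.70) and limma (0.88 and 0.66). Without WT replicate 1 GalDH and GLDH had 0.89 and 0.60. VTC2, VTC5 and GME were called lower with DESeq2, library totals and limma. With the replicate block 0 of the synthesis genes were called lower, while 286 of all genes were called higher and 457 lower. Of 10 recycling reductase genes, 1 rose and 2 fell (median -0.063). The monodehydroascorbate reductase gene MDAR6 (AT1G63940), whose products go to plastids and mitochondria, rose 1.70-fold (log2 scale SE 0.102), with 209 and 223 CPM in line 5 against 131 and 123 CPM in WT. The glutathione reductase genes GR1 (AT3G24170, cytosol) and GR2 (AT3G54660, plastid and mitochondrion) fell by 0.87 and 0.50 on the log2 scale, and MDAR2 had 0.61 and was not called. The calls of GR1 and GR2 were lost without WT replicate 2 and with library totals, where 0 of the recycling genes were lower.

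Part of the photorespiratory set that shares the peroxisome with the catalases was lower in line 5. Of 7 genes of the peroxisomal part of photorespiration, 2 fell and 0 rose, against 8.72% lower over all genes; 6 of 7 lay below 0, as did 9337 of all 18737 genes tested, and the median was -0.63 on the log2 scale. The 4 green tissue markers lay below 0 too, at a median of -0.39, and their part in these differences was not tested. The aminotransferase gene GGT2 (AT1G70580) fell by 1.15 and the hydroxypyruvate reductase gene HPR1 (AT1G68010) by 1.00 on the log2 scale. The glycolate oxidase gene GOX2, whose product makes the peroxide that CAT2 removes, had -0.76 (edgeR, adjusted p = 0.0536) and AGT1 had -0.53 (edgeR, adjusted p = 0.0566), so neither was called. Reads of GOX1 and GOX2, near-identical neighbours, may be divided between them. Of 5 tested acyl-CoA oxidase genes of fatty acid breakdown, ACX2 (AT5G65110) fell by 0.61 on the log2 scale and the other 4, ACX1 (-0.19), ACX3 (0.18), ACX4 (0.036) and ACX5 (0.058), were not called. With library totals edgeR did not call ACX2 and called ACX3 higher (0.42), and limma called 0 of the 5. DESeq2 called 5 of the photorespiration genes lower, and edgeR called 1 without WT replicate 2.

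Of the other peroxidases tested, edgeR called 1. Of 7 tested glutathione peroxidase-like genes, GPX5 (AT3G63080) rose 1.40-fold and 0 fell; GPX7 had -0.84, GPX1 -0.43, GPX6 0.67 and GPX8 0.39, none called. The GPX5 call was absent with DESeq2, which called GPX7 lower (-0.85), and without WT replicate 2. Without WT replicate 1 edgeR called GPX5 and GPX8 higher and GPX7 and GPX1 lower. Of 8 tested peroxiredoxin genes 0 were called by edgeR, with a median of -0.064, and DESeq2 called 0 too; PRXIIC had -0.90, PER1 -0.89, 2CPA -0.17 and PRXIIB 0.14. Unadjusted p was under 0.05 for PRXIIC alone, and 2 peroxiredoxins were called lower without WT replicate 1. NCA1, a chaperone needed for catalase activity, and LSD1, a zinc finger protein that binds catalase, had -0.32 and -0.35 and were not called. APX4, a thylakoid lumen relative without peroxidase activity, had -0.025. Over these lists 2 of 47 tested genes were higher and 8 lower, against the 6.72% and 8.72% of all genes given above. Counts from fits with 1 library left out are not set beside these, as such a fit leaves 1 library in a group.

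**Figure D4:**
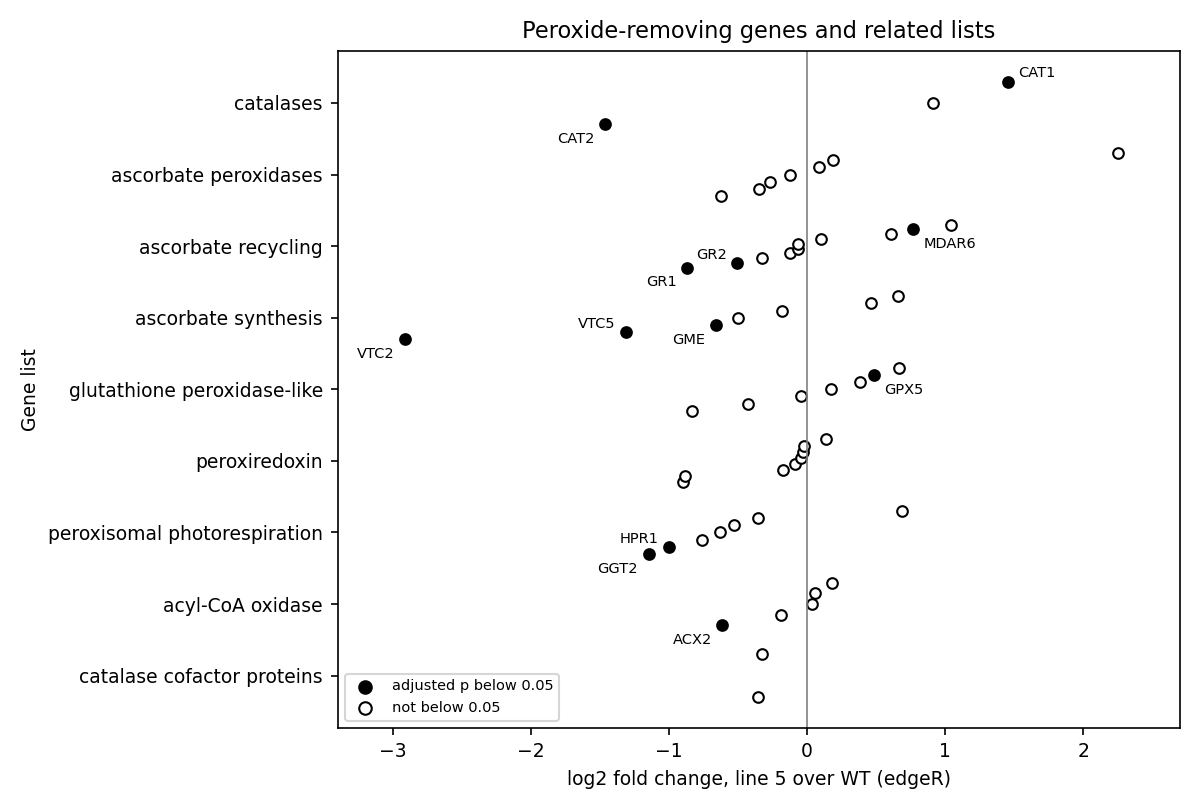
log2 fold change of line 5 over WT (edgeR) for each tested gene of the catalases, the ascorbate peroxidases and the related lists, filled and named where the adjusted p was below 0.05. VTC2 at -2.91 lies farthest left, the open ascorbate peroxidase point at 2.26 is APX2, and the photorespiration genes lie left of 0 apart from 1.

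The genes with the most similar profiles are given as a description over the 4 libraries, by root mean square distance of log2 CPM centred on the WT mean, among genes of at least 5 CPM. For CAT2 they were ECS1 (distance 0.0312), SPS2 (0.0348) and THI2.2 (0.0444). For CAT1 they were SNRK2.2 (0.0279), a kinase of abscisic acid signalling, AT1G70820 (0.0705) and TGA3 (0.106). For CAT3 they were the calmodulin gene CAM4 (0.0203), AT1G06890 (0.0361) and the clock regulator PRR7 (0.0455). APX2 had looser neighbours in AT5G28460 (0.231), the heat-induced coactivator gene MBF1C (0.233) and HSA32 (0.248), a heat acclimation gene.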

How the data were processed

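Ribosome footprint libraries of line 5 (n = 2) and WT (n = 2) seedlings were compared. The authors deposited 1 table with a raw count and an FPKM per gene and library, group means, a log2 fold change (of mean FPKM), and a p-value with its FDR, per the file headers. Tools named are fastp, Bowtie2, STAR, RSEM and DESeq2, with build TAIR10, per the submitters' processing notes; the sources used here do not give counting limits or strand. The 5 rows without an identifier (0.0145% to 0.0340% of counts) were left out. Names and gene order come from RefSeq TAIR10.1 (27444 of 27554 identifiers matched); no coordinates are printed, as builds differ in name.

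edgeR 4.0.16 under R 4.3.3 was run on the counts of all genes: filterByExpr with a minimum count of 10, TMM, quasi-likelihood fit on group, two-sided, Benjamini-Hochberg. The SE is the log2 fold change over the square root of F. CPM uses effective library sizes; 3 counts correspond to 0.0660 to 0.124 CPM. Paired libraries were no duplicates (chi-square over its degrees of freedom 25.7 in line 5 and 39.0 in WT). The edgeR step was tested on simulated data. Alternatives were DESeq2 1.42.0, other scalings and filters, limma 3.58.1 on log2(FPKM + 1), a replicate block and each library left out. Members and lists were chosen with earlier results of these data known. Named are all members, up to 4 genes per list with the smallest p, and 3 nearest genes for 4 members. ACX4, CCA1, LHY, HSFA2 and the genes beside CAT1 and CAT3 were added after values were seen. GPX6, GLDH and GOX1 are also named outside this rule, as are ClpD, the tissue markers and the listed genes too scarce to test.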

Additional observations from a re-analysis of the deposited data

How the results depend on the processing

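With only 2 libraries a group, a fit with 1 left out takes its spread from the other group's pair alone. The SD of the log2 CPM difference over all genes was 0.512 in the WT pair and 0.344 in the line 5 pair. Among the members APX2 and APX5 had the fewest counts. GPX4, PRXIID, ACX6 and 3 root markers had too few counts to be tested. CAT1 and CAT2 kept their direction throughout; with 1 library left out their log2 fold changes ran from 1.01 to 1.79 and from -1.79 to -1.20, CAT3 from 0.66 to 1.12 and APX1 from -0.082 to 0.28, members called higher from 0 to 2 and lower from 0 to 1, and related-list genes called higher from 0 to 7 and lower from 0 to 16. Calls over all genes were likewise most numerous without WT replicate 1 and far fewer without either line 5 library. The ranges of calls with 1 library left out are therefore not read as particular to the members or the related lists. CAT3 passed the threshold with DESeq2 (0.90), RLE factors (0.90), upper quartile factors (0.95), no filter (0.92), organelle genes left out (0.91), library totals (1.15) and limma on log2(FPKM + 1) (1.14). APX2 passed it with DESeq2 (2.25), upper quartile factors (2.29), no filter (2.27), library totals (2.49) and limma (1.17, compressed by the pseudocount). The members called higher were then 3 with DESeq2, upper quartile factors, no filter, library totals and limma, and 2 with RLE factors or without organelle genes. Over all genes, 1591 were called higher and 2289 lower with DESeq2, 1422 and 1559 with upper quartile factors, and 2927 and 1123 with limma. RLE factors gave 1252 and 1680, leaving out organelle genes 1274 and 1635, and no filter 1573 and 1965 of 23410 genes. Library totals gave 3355 and 1226. APX6 turned to 0.12 with library totals and 0.11 with limma, where the median of all genes was 0.24 and 0.20. Related-list calls were 7 higher and 5 lower with library totals, and 6 and 5 with limma. The cause of these shifts was not tested beyond that scaling. Library totals and the crossed pairing were chosen after seeing the data.

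The labels do not say whether libraries with the same replicate number were handled together (correlation of same-numbered deviations -0.12). With the replicate block CAT1 had 1.41 (edgeR, adjusted p = 0.0735) and CAT2 -1.48 (edgeR, adjusted p = 0.0613), 0 members were called higher and 0 lower, and 0 and 1 related-list genes; over all genes 286 were higher and 457 lower, against 1260 and 1633 without it. With the numbers crossed, edgeR called 3 members higher and 1 lower, and 1530 higher and 2067 lower over all genes. With a minimum count of 50, APX2 and APX5 were not tested, and 44 related-list genes were, against 47.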
